A study of Homo sapiens with 192 samples.

Results

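LS513 and LS174T are a pair of human colorectal cancer (CRC) cell lines, and both expressed mucin genes. They were compared as grown in 2D, that is, as adherent cultures. The comparison used 6 of the 24 RNA-sequencing libraries of the series: 3 of LS513 and 3 of LS174T. These libraries were chosen by cell line and growth condition alone, and the technical replicates of each library were summed. The study cultured these lines together with HT29 and HCT116, each in 2D and as 3D spheroids, to examine responses to extracellular purines. LS513 is known as a microsatellite stable line and LS174T as a microsatellite instable one. Both lines received the same medium with fetal bovine serum, no compound was added to the sequenced cells as far as the labels say, and each group stands for 1 established line, so a difference between groups is a difference between 2 lines and not between 2 kinds of tumor. The labels do not say that the 3 libraries of a group came from separate cultures, so p-values measure only the spread between these libraries, which may be technical.

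The mucus of the intestine is built from gel-forming mucins that goblet cells store in granules and release by regulated exocytosis, while membrane-bound mucins form the glycocalyx of the apical surface. Their protein cores carry dense O-glycans that are started by GALNT enzymes and extended in the Golgi. In intestinal crypts, stem cells maintained by Wnt signaling give rise to secretory cells (goblet, Paneth, enteroendocrine and tuft cells) through the transcription factor ATOH1. They also give rise to absorptive cells, the colonocytes of the colon, with a microvillous brush border.

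The 6 libraries held between 30610900 and 33063055 counts, so that 3 counts correspond to between 0.0864 and 0.0988 counts per 1000000 counts of the library (CPM) after scaling. All 14 epithelial marker genes were expressed in both lines, and their summed level was 11506 to 11830.2 CPM in LS513 and 4070.2 to 5583 CPM in LS174T. Of the 14, 10 were called higher in LS513 by the test described below and none higher in LS174T. The defining leukocyte markers PTPRC and CD3E, the endothelial markers PECAM1, VWF and CDH5 and the fibroblast markers COL1A1, COL1A2 and DCN did not pass the filter on low counts. The summed level stayed between 2.34 and 6.71 CPM for the 10 fibroblast markers, between 4.00 and 22.8 CPM for the 10 leukocyte markers (mostly CD68, which shares 81.7% of its exonic bases with AC016876.2) and between 1.12 and 9.06 CPM for the 8 endothelial markers (mostly ESAM). In bulk RNA, fewer expressing cells and less RNA per cell cannot be told apart.

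A gene is described here as on when each of the 3 libraries of a line had at least 1 CPM, and as silent when each had at most 3 counts. By this rule 199 genes were on in LS513 and silent in LS174T, 1.22% of the 16317 genes tested. In the other direction 577 genes were on in LS174T and silent in LS513, 3.54% of the genes tested. Protein-coding genes made up 162 of the first class and 403 of the second. The rest of the first class held 16 lincRNA genes, 9 antisense genes, 10 pseudogenes and 2 of other types, and the rest of the second 77, 24, 48 and 25. No count at all was found in the silent line for 65 of the 199 genes and for 308 of the 577. Most of these genes were expressed at a low level in the line where they were on, with a median of 4.10 CPM for the 199 and 4.80 CPM for the 577, and 47 and 188 of them averaged at least 10 CPM. The lines shared far more than they split: 12018 genes had at least 1 CPM in all 6 libraries.

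**Figure D1:**
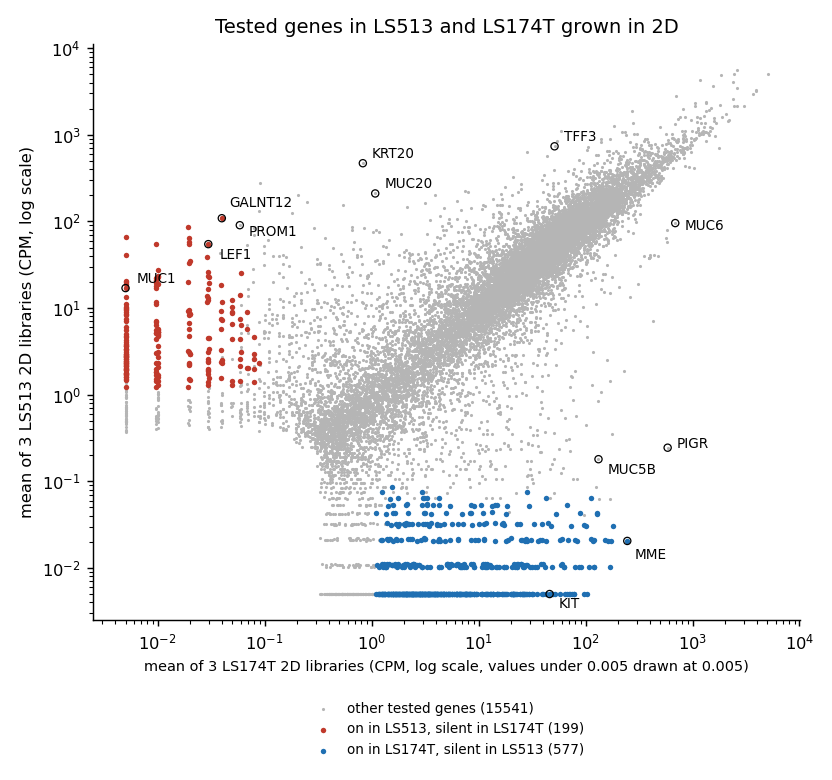
Mean CPM of the 3 LS513 2D libraries (vertical, log scale) against the mean of the 3 LS174T 2D libraries (horizontal, log scale) for the 16317 genes tested, 1 point per gene, with means under 0.005 CPM drawn at 0.005. The 199 genes on in LS513 and silent in LS174T lie along the left edge and the 577 genes of the opposite class along the lower edge, while most genes follow the diagonal.

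For expression as a whole, edgeR's quasi-likelihood test called 2313 genes higher in LS513 (14.2% of those tested) and 2725 higher in LS174T (16.7%) (adjusted p below 0.05, and a difference of 1 or more on the log2 scale). The median log2 fold change over all tested genes was -0.04. Counts of called list members below are to be read beside 14.2% (higher in LS513) and 16.7% (higher in LS174T) of all tested genes. The libraries of the 2 lines overlapped for 17 of the 5038 called genes, so a lack of overlap adds little to a call. With 3 libraries a side, an exact permutation test of any single gene could not go below a two-sided p of 0.1, so calls rest on the spread estimated across genes. Log2 fold changes below are LS513 over LS174T, so that a positive value is higher in LS513.

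Promoter sequences are given for 4 of the genes that were on in one line and silent in the other, as examples of both directions: MUC1, a membrane mucin, GALNT12, an enzyme that starts mucin O-glycans, and LEF1, a nuclear partner of beta-catenin, were on in LS513, and KIT, a receptor tyrosine kinase found on goblet and Paneth-like secretory cells of the colon, was on in LS174T. Each run holds the 250 bases before the gene's RefSeq start (GRCh38.p14), read 5′ to 3′ on the gene's strand, with the dinucleotide CG in capitals. RefSeq promoters were found by symbol for 421 of the 565 protein-coding genes of both classes. The LEF1 run lies inside the gene as GENCODE annotates it (chr4:108047545-108168956), downstream of that 5′ end, so it may not be the promoter used. MUC1 had 2 starts in the promoter table, and the run belongs to 1 of them.
MUC1, chr1:155192916-155193165, minus strand: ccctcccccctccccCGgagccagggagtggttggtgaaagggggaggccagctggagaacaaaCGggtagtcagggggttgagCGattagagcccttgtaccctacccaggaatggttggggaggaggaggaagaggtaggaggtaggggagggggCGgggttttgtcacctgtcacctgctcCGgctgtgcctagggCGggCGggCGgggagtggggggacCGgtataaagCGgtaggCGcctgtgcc
GALNT12, chr9:98807420-98807669, plus strand: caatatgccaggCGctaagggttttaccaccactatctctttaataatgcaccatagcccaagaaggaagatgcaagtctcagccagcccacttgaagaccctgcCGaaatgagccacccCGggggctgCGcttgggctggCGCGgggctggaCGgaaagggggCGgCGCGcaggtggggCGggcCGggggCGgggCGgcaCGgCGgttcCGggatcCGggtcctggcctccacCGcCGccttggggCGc
LEF1, chr4:108166302-108166551, minus strand: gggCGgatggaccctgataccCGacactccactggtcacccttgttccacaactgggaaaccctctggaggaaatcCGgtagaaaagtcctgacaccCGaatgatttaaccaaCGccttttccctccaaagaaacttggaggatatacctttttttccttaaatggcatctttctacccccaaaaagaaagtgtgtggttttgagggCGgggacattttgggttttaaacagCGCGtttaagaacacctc
KIT, chr4:54657707-54657956, plus strand: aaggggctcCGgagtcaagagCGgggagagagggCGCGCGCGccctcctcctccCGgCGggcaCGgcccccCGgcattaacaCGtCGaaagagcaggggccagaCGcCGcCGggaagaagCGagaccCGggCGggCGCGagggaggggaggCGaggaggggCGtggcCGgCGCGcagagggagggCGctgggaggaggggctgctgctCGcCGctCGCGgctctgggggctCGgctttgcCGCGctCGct
The KIT run held 34 CG dinucleotides, a number reached by 6.61% of the 27305 genes in the promoter table. GALNT12 held 21, which 29.8% of genes reached, MUC1 held 11, the median of the table, and LEF1 held 8. The letters TATAAA, searched on both strands, occurred in the MUC1 run and in none of the other 3, and 11.1% of all genes in the table had them in this window. The counts of CG are a description of the sequence, and neither methylation nor binding was measured.

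Of the 6 listed secreted mucins 4 passed the filter, all of them gel-forming, and 3 were called higher in LS174T and none higher in LS513. MUC6, a gel-forming mucin of the stomach and of mucous glands, stood at 85.2, 74.7 and 127 CPM in LS513 and at 716, 651 and 702 CPM in LS174T. MUC5B, a gel-forming mucin of the airway and also made in the colon, stood at 0.165, 0.246 and 0.1295 CPM in LS513 and at 145, 112 and 139 CPM in LS174T. MUC2, the main mucin of intestinal goblet cells, stood at 9.75, 4.62 and 18.6 CPM in LS513 and at 61.5, 41.3 and 51.9 CPM in LS174T. For these 3 genes every LS174T library was above every LS513 library, and nearly all called genes were likewise without overlap. The log2 fold changes were -2.85 ± 0.16 for MUC6, -9.48 ± 0.33 for MUC5B and -2.23 ± 0.44 for MUC2 (SE, n = 3 per line, edgeR adjusted p = 1.3e-09, 1.2e-11 and 0.0012). MUC5B was carried by 5, 8 and 4 counts in LS513, just above the limit set for silence.

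MUC5AC, the mucin of the gastric surface that many colorectal tumors also make, did not separate the lines. It stood at 116, 88.8 and 142 CPM in LS513 and at 154, 98.1 and 165 CPM in LS174T, and the ranges overlapped. Its log2 fold change was -0.26 ± 0.21 (edgeR adjusted p = 0.29). The secreted mucins MUC7 and MUC19 did not pass the filter in either line. Per kb of exon, MUC6 was the highest gel-forming mucin in both lines, at 11.3 CPM per kb in LS513 and 81.8 in LS174T. In LS174T MUC5AC, MUC5B and MUC2 followed at 7.96, 7.10 and 4.07 CPM per kb, and in LS513 MUC5AC, MUC2 and MUC5B at 6.63, 0.869 and 0.00968. Reads that aligned more than once had been removed, and mucin exons hold tandem repeats, so the levels per kb may be too low by an amount not measured here. The 6 secreted mucins together took 0.0166% to 0.0282% of the counts of an LS513 library and 0.0995% to 0.116% of an LS174T library.

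The membrane mucins went the other way: 6 of the 12 listed passed the filter, and those 6 were called higher in LS513. MUC1, a transmembrane mucin with a signaling tail, stood at 14.2, 13.5 and 23.3 CPM in LS513 (432, 439 and 719 counts) and had 0 counts in each LS174T library, which makes it at least 188-fold higher in LS513 against a floor of 3 counts per library. MUC13, the membrane mucin with the highest level per kb of exon in both lines, stood at 468, 446 and 507 CPM in LS513 and at 126, 127 and 133 CPM in LS174T (log2 fold change 1.88 ± 0.10, edgeR adjusted p = 3.0e-10). MUC20 stood at 220, 194 and 216 CPM in LS513 and at 0.785, 0.979 and 1.48 CPM in LS174T (7.601 ± 0.20, edgeR adjusted p = 1.0e-13). Thus MUC1 was present in one line only, MUC20 was present in LS174T at a trace, and MUC13 was well expressed in both. MUC20 shares 42.8% of its exonic bases with MUC20-OT1, which had a log2 fold change of 2.98, so its level is uncertain by that overlap.

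MUC3A, MUC12 and MUC17 were also called. MUC3A stood at 130, 119 and 134 CPM in LS513 and at 72.2, 55.5 and 59.8 CPM in LS174T, a log2 fold change of 1.03 ± 0.20. MUC12 stood at 2.34, 1.11 and 1.59 CPM against 0.362, 0.374 and 0.421 CPM (2.10 ± 0.39). MUC17 stood at 8.86, 5.57 and 3.76 CPM against 3.71, 1.47 and 2.95 CPM (1.16 ± 0.34, edgeR adjusted p = 0.0091), and its lowest LS513 library was barely above the highest LS174T library. MUC3A lost its call without LS513 replicate 3, LS174T replicate 2 or LS174T replicate 3, with log2 fold changes of 0.95 to 1.00. MUC17 lost it without LS513 replicate 1 (0.79) or LS174T replicate 2 (0.86). MUC4, MUC15, MUC16, MUC21, MUC22 and EMCN did not pass the filter. The 12 membrane mucins together took 0.0766% to 0.0869% of the counts in LS513 and 0.0204% to 0.0220% in LS174T, so the line with more secreted mucin RNA had less membrane mucin RNA.

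**Figure D2:**
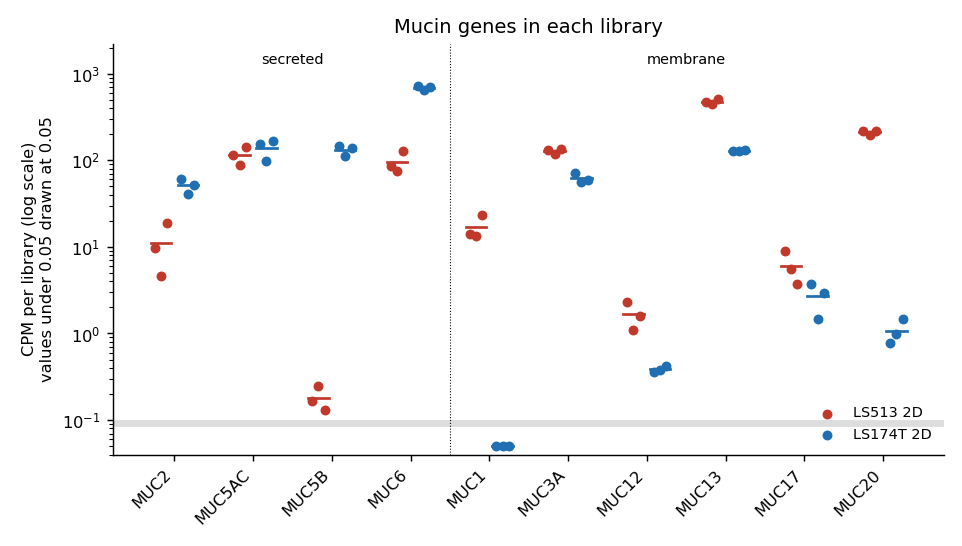
CPM of the 10 tested mucin genes in each of the 6 libraries (vertical, log scale, values under 0.05 drawn at 0.05), LS513 in red and LS174T in blue, with lines at the means, secreted mucins to the left of the dotted line and membrane mucins to the right. The grey band spans the level of 3 counts in these libraries, 0.0864 to 0.0988 CPM. MUC5B in LS513 and MUC1 in LS174T are near or below the band.

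The other proteins of goblet cells were called in both directions. Of the 33 listed goblet cell secreted and granule proteins, 27 passed the filter, 11 were called higher in LS513 and 7 higher in LS174T. The shares of all tested genes were 14.2% and 16.7%, and the median log2 fold change of the list was 0.32. TFF3, the trefoil peptide that intestinal goblet cells secrete with MUC2, stood at 729, 768 and 712 CPM in LS513 and at 57.2, 48.5 and 48.1 CPM in LS174T (3.84 ± 0.14, edgeR adjusted p = 4.0e-12). SPINK4, a goblet cell protease inhibitor, stood at 232, 165 and 255 CPM against 6.22, 9.24 and 8.43 CPM (4.77 ± 0.20). REG4, a lectin of goblet and enteroendocrine cells, varied between libraries and stood at 777, 654 and 510 CPM against 238, 105 and 130 CPM (2.04 ± 0.31). All LS513 libraries were above all LS174T libraries for these 3 genes, the opposite order to MUC2, MUC5B and MUC6.

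Further goblet cell genes called higher in LS513 were FCGBP, a large mucus protein that binds MUC2, with a log2 fold change of 1.62, the kallikrein KLK1 with 3.80, the protease CAPN8 with 3.98, BCAS1 with 6.15, the endoplasmic reticulum stress sensor ERN2 with 2.44 and the granule tether SYTL2 with 2.49. Genes called higher in LS174T included ZG16B at 17.8 ± 1.53 CPM against 1.84 ± 0.493 CPM in LS513, SPINK1 at 5.60 ± 0.523 against 1.95 ± 0.707, and TFF2, a trefoil peptide of gastric mucous cells, at 4.93 ± 1.76 against 2.20 ± 0.788 (SD, n = 3). The call of TFF2 was lost without LS513 replicate 3 (-0.99) or LS174T replicate 1 (-0.85). WFDC2, a small secreted protease inhibitor of mucosal surfaces, was on in LS174T at 3.26, 4.87 and 3.73 CPM and had 0 counts in all LS513 libraries. AGR2, a disulfide isomerase needed for MUC2 assembly, was high in both lines, at 830 ± 144 CPM in LS513 and 721 ± 70.9 CPM in LS174T, and did not pass the test (0.20 ± 0.12, edgeR adjusted p = 0.16). CLCA1, ZG16 and ITLN1, which mature goblet cells secrete in quantity, did not pass the filter in either line.

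The transcription factors of the secretory lineage were mostly higher in LS513. Of 19 listed, 17 passed the filter, 9 were called higher in LS513 and 1 higher in LS174T, beside 14.2% and 16.7% of all tested genes. ATOH1, which commits crypt progenitors to the secretory lineage, stood at 8.53, 9.91 and 12.5 CPM in LS513 and at 3.56, 5.70 and 3.97 CPM in LS174T (1.22 ± 0.18). SPDEF, a factor of goblet cell maturation, stood at 16.5, 20.4 and 24.2 CPM against 1.42, 3.31 and 2.71 CPM (3.04 ± 0.21). Both were expressed in both lines. CREB3L1, a membrane-bound factor of the secretory pathway, had a log2 fold change of 4.89, BHLHA15, a factor of secretory granule cells, 4.17, GFI1, which acts below ATOH1, 3.52, and XBP1, a factor of the unfolded protein response, 1.25. The forkhead genes split: FOXA3 (2.87) and FOXA2 (1.67) were higher in LS513, whereas FOXA1 stood at 1.98, 2.28 and 2.36 CPM in LS513 and at 49.4, 55.0 and 53.1 CPM in LS174T (-4.57 ± 0.13, edgeR adjusted p = 3.8e-14). HES1, the Notch target that opposes ATOH1, was at 23.6 ± 1.46 CPM in LS513 and 25.8 ± 0.589 CPM in LS174T and did not pass the test (edgeR adjusted p = 0.25).

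Among the enzymes of mucin O-glycosylation, a gene was found on and silent in each direction. Of 37 listed enzymes 31 passed the filter, 11 were called higher in LS513 and 6 higher in LS174T, beside 14.2% and 16.7% of all tested genes. GALNT12, at chr9:98807699-98850081 on GRCh38, was the most abundant protein-coding gene that was on in LS513 and silent in LS174T. It stood at 116, 101 and 109 CPM in LS513 and was carried by 1, 1 and 2 counts in LS174T, a ratio of 2748 with a 95% counting interval of 1073 to 10086. GALNT14, of the same family of initiating enzymes, was on in LS174T at 3.47, 2.62 and 3.19 CPM and had 0 counts in all LS513 libraries, at least 31.3-fold higher in LS174T. GCNT4, which branches core 1 glycans into core 2, was on in LS174T at 2.21, 1.47 and 1.66 CPM with 1, 0 and 0 counts in LS513. The widely expressed initiating enzymes GALNT1 and GALNT2 were at 122 ± 3.07 and 124 ± 2.10 CPM in LS513 and at 135 ± 9.30 and 72.7 ± 1.65 CPM in LS174T and were not called.

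Enzymes that branch, extend or cap the O-glycan were called in both directions. GCNT1, a core 2 branching enzyme, was called higher in LS513 (2.11 ± 0.15), and GCNT3, the mucin-type enzyme of core 2 and core 4 branches, higher in LS174T (-2.94 ± 0.15), at 177, 166 and 185 CPM against 23.8, 17.8 and 27.1 CPM in LS513. The sialyltransferases ST3GAL1 (-3.27), ST3GAL4 (-3.40) and ST6GALNAC1 (-1.19) were higher in LS174T, and ST6GALNAC2 (1.63, with 38.5% of its exonic bases shared with AC015802.6) was higher in LS513 at 2.37 CPM. B3GALT5 (5.83), which makes type 1 chains, B3GNT3 (1.21), which extends core 1, and the sulfotransferase GAL3ST2 (3.18) were higher in LS513. The fucosyltransferases FUT2, FUT3 and FUT8 were expressed in both lines and were not called. So 3 of the 4 tested sialyltransferases of the list were higher in LS174T.

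For regulated exocytosis and the ion transport that hydrates mucus, 34 of 38 listed genes passed the filter. Among them 13 were called higher in LS513 and 6 higher in LS174T, beside 14.2% and 16.7% of all tested genes. The paralogs CADPS and CADPS2, which prime dense-core vesicles, were higher in opposite lines, and LS174T expressed both. CADPS stood at 88.1, 83.7 and 95.7 CPM in LS513 and at 4.17, 4.78 and 4.60 CPM in LS174T (4.30 ± 0.11, edgeR adjusted p = 2.4e-13). CADPS2 was on in LS174T at 32.0, 42.3 and 42.8 CPM and was carried by 0, 0 and 3 counts in LS513, a ratio of 1222 with a 95% counting interval of 418 to 5926. MARCKS, whose phosphorylation releases cortical actin during mucin secretion, stood at 44.3, 51.2 and 49.2 CPM in LS513 and at 0.453, 0.864 and 0.692 CPM in LS174T (6.16 ± 0.18). The small GTPases RAB3B (4.28), RAB37 (5.65) and RAB27B (1.797), the RAB27 effector MYRIP (4.64) and the priming factor UNC13D (2.99) were also called higher in LS513.

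Ion and water transport genes of the same list were called in both directions. SLC4A4, the basolateral sodium bicarbonate cotransporter, was on in LS174T at 18.4, 20.1 and 22.1 CPM and had 0 counts in every LS513 library, at least 205-fold higher in LS174T. The chloride channel ANO1 (-1.77), the potassium channel KCNQ1 (-1.52) and the chloride loader SLC12A2 (-1.11) were called higher in LS174T, while the chloride channel CLCN2 (1.82) and the water and glycerol channel AQP3 (1.24) were higher in LS513. CFTR, the apical chloride and bicarbonate channel, was at 139 ± 3.23 CPM in LS513 and 164 ± 15.1 CPM in LS174T and was not called (edgeR adjusted p = 0.24). KCNE3, the partner of KCNQ1 in the crypt, was in neither list but was the second most abundant protein-coding gene on in LS513 and silent in LS174T, at 89.1, 90.5 and 77.3 CPM with 0, 2 and 0 counts in LS174T. Channel and partner were thus called higher in opposite lines.

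Of 48 listed genes of absorptive colonocytes 32 passed the filter. Among them 25 were called higher in LS513 and 5 higher in LS174T, beside 14.2% and 16.7% of all tested genes. The median log2 fold change of those tested was 2.62, beside -0.04 for all genes. The general epithelial markers were also higher in LS513, with 10 of 14 called and a median of 1.15 (VIL1, CDH17 and CDX2 are in both lists), and their part in the absorptive counts was not tested. KRT20, a keratin of the differentiated upper crypt, stood at 483, 404 and 523 CPM in LS513 and at 0.665, 1.06 and 0.752 CPM in LS174T (9.14 ± 0.22, edgeR adjusted p = 1.1e-13). VIL1, the villin of the microvillus core, stood at 1340, 1409 and 1336 CPM against 279, 273 and 282 CPM (2.29 ± 0.08). GUCA2A, the guanylin prohormone, stood at 35.6, 26.9 and 13.9 CPM against 0.0302, 0.202 and 0.181 CPM (7.48 ± 0.50). KRT20 was thus near absence in LS174T and VIL1 well expressed in both lines. Other brush border genes were also called higher in LS513: the myosins MYO1A (3.45) and MYO7B (3.29), the scaffold USH1C (1.505) and the protocadherin CDHR5 (3.83). So were the surface glycoproteins CEACAM1 (4.70), CEACAM5 (2.95) and CEACAM6 (3.94), the fatty acid binding protein FABP1 (4.78), the peptidases DPP4 (2.30) and MEP1A (6.37) and the homeobox factors CDX1 (1.72) and CDX2 (1.03), the last of which lost its call without LS513 replicate 3 (0.96).

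The absorptive genes called higher in LS174T included 1 of the most abundant genes of that line. PIGR, the receptor that carries dimeric IgA across the epithelium, stood at 520, 584 and 652 CPM in LS174T, where it ranked 155th of the tested genes by mean CPM, and at 0.198, 0.277 and 0.259 CPM in LS513 (-11.20 ± 0.17, edgeR adjusted p = 1.6e-16). Its 6, 9 and 8 counts in LS513 were above the limit for silence. SLC9A3, the apical sodium-hydrogen exchanger, was on in LS174T at 8.06, 10.1 and 11.8 CPM with 0, 1 and 2 counts in LS513, and shares 41.9% of its exonic bases with PP7080. The carbonic anhydrase CA12 (-2.76), the sulfate transporter SLC26A2 (-1.29) and the aminopeptidase ANPEP (-2.20, under 1 CPM in both lines) were the other 3. HNF4A, a nuclear receptor of the intestinal epithelium, was at 202 ± 20.9 CPM in LS513 and 179 ± 11.96 CPM in LS174T and was not called, nor was the lectin LGALS4. CA1, CA4, AQP8, MS4A12 and SLC26A3, genes of the mature surface colonocyte, did not pass the filter in either line.

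**Figure D3:**
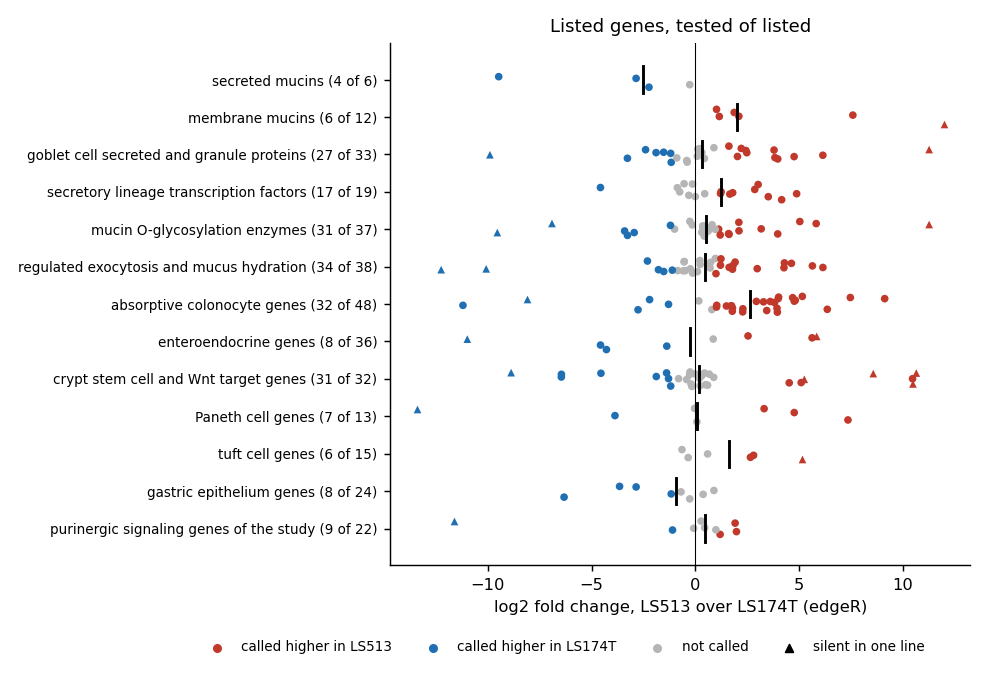
Log2 fold change, LS513 over LS174T, of each tested member of 13 gene lists (1 mark per gene, with the number tested of the number listed), colored by call, with a black bar at the list's median. Triangles are genes on in one line and silent in the other, whose fitted folds depend on the small count that edgeR adds and are no measure of size. The medians of membrane mucins (1.99) and absorptive genes (2.62) lie to the right and that of secreted mucins (-2.54) to the left.

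Stem cell and Wnt target genes did not favor either line as a list, with 7 called higher in LS513 and 8 higher in LS174T of 31 tested and 32 listed. Of all tested genes, 14.2% and 16.7% were called in these directions. The single genes differed widely. LEF1, a Wnt-responsive factor that binds beta-catenin, stood at 55.5, 53.7 and 54.9 CPM in LS513 with 1 count in each LS174T library, a ratio of 1841 with a 95% counting interval of 630 to 8932. The Wnt-responsive receptor TNFRSF19, the RNA-binding protein MSI1 and the secreted inhibitor DKK4 were also on in LS513 and silent in LS174T. TNFRSF19 stood at 14.9, 13.9 and 10.2 CPM, and MSI1 and DKK4 averaged 6.01 ± 1.44 and 1.29 ± 0.192 CPM. DKK1, another secreted Wnt inhibitor, was on in LS174T at 15.9, 17.9 and 17.1 CPM with 2, 0 and 1 counts in LS513. PROM1, which encodes the surface antigen CD133, stood at 83.5, 94.8 and 93.1 CPM in LS513 and at 2, 4 and 0 counts in LS174T, so that 1 library kept it out of the silent class.

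Of the listed stem cell genes, LGR5, SMOC2 and OLFM4 were called higher in LS174T, whereas TNFRSF19, MSI1 and PROM1, given above, were higher in LS513. LGR5, the R-spondin receptor of crypt stem cells, stood at 13.2, 13.3 and 13.4 CPM in LS513 and at 28.97, 34.2 and 34.4 CPM in LS174T (-1.29 ± 0.15). SMOC2 stood at 1.71, 1.17 and 1.00 CPM against 101, 120 and 121 CPM (-6.46 ± 0.17). OLFM4, a secreted crypt base glycoprotein, stood at 0.329, 0.0615 and 2.23 CPM against 40.05, 101 and 87.6 CPM (-6.45 ± 0.79), with a wide spread in both lines. The Wnt inhibitors NKD1 (-1.18), NOTUM (-1.88) and APCDD1 (-4.55) and the cyclin CCND1 (-1.38) were called in the same direction. The general Wnt targets AXIN2, EPHB2, SOX9 and MYC were high in both lines and were not called, with log2 fold changes between -0.27 and 0.44. Per kb of exon, SOX9 stood at 51.6 CPM in LS513 and 62.4 in LS174T.

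Of 36 enteroendocrine genes 8 passed the filter, and 21 had at most 3 counts in every library. ISL1, a homeobox factor of hormone cells, was on in LS174T at 8.88, 8.29 and 8.15 CPM and had 0 counts in LS513. CELF3, a neural splicing factor, was on in LS513 at 1.75, 2.34 and 1.78 CPM with 0, 1 and 2 counts in LS174T. DDC, the aromatic amino acid decarboxylase, was called higher in LS513 (2.55 ± 0.10) at 169 ± 4.40 CPM, and NEUROG3 (-4.28), GCG (-4.57) and SYP (-1.37), each under 2 CPM, were called higher in LS174T. GCG lost its call with the test of DESeq2 (adjusted p = 0.10). CHGA, CHGB, PYY and SST did not pass the filter.

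Of 13 Paneth cell genes 7 were tested, 3 were called higher in LS513 and 2 higher in LS174T, beside 14.2% and 16.7% of all tested genes. KIT was on in LS174T at 43.1, 46.7 and 48.5 CPM and had 0 counts in LS513, at least 467-fold higher in LS174T, and PLA2G2A, a secreted phospholipase, was higher in LS174T (-3.87 ± 0.22). PRSS2 was higher in LS513 with a wide spread, at 9.35, 14.1 and 37.3 CPM. Of 15 tuft cell genes 6 were tested, and TRPM5, the cation channel of tuft cells, was on in LS513 at 1.48, 1.20 and 1.98 CPM with 0, 2 and 2 counts in LS174T. POU2F3 (2.81) and PLCG2 (2.66) were also called higher in LS513, at 0.653 and 1.03 CPM. So 3 of the 6 were called higher in LS513 and none higher in LS174T, beside 14.2% and 16.7% of all tested genes. The summed level of the tuft list went the other way, at 40.15 to 49.96 CPM in LS513 and 55.55 to 61.78 CPM in LS174T. The 3 calls, made at low levels, thus do not describe the list as a whole.

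Gastric epithelium genes, of which 8 of 24 were tested, gave no call higher in LS513 and 4 higher in LS174T. Of all tested genes, 14.2% and 16.7% were called in these directions. Besides MUC6 and TFF2 these were CTSE, an intracellular aspartic protease, at 48.7, 24.1 and 34.2 CPM in LS174T and 3.69, 2.68 and 2.17 CPM in LS513 (-3.65 ± 0.25), and SULT1C2 (-6.32 ± 0.25). GKN1, CLDN18 and SOX2 did not pass the filter. TFF1, a trefoil peptide of the gastric surface, went the other way at 36.9 ± 5.26 CPM in LS513 and 19.7 ± 4.197 CPM in LS174T, with a log2 fold change of 0.90 that stayed under the fold threshold.

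For the purinergic genes that the study set out to examine, 9 of 22 passed the filter. Among them 3 were called higher in LS513 and 2 higher in LS174T, beside 14.2% and 16.7% of all tested genes. The study described some of these genes from these same samples, so the counts are not independent evidence of a direction. P2RX5, an ATP-gated ion channel, was on in LS174T at 14.3, 11.6 and 13.1 CPM (475, 402 and 436 counts) and had 0 counts in every LS513 library, at least 132-fold higher in LS174T. It shares 41.6% of its exonic bases with the readthrough gene P2RX5-TAX1BP3. P2RY2, the ATP and UTP receptor that triggers mucin release in epithelia, stood at 15.2 CPM in each LS513 library and at 4.08, 3.97 and 3.97 CPM in LS174T (1.92 ± 0.12, edgeR adjusted p = 4.1e-10). P2RX4 (1.20) and P2RX6 (1.99) were also called higher in LS513. P2RY11 (-1.09) was called higher in LS174T and shares 54.2% of its exonic bases with PPAN and the PPAN-P2RY11 readthrough. NT5E, the ectoenzyme that makes adenosine from AMP, was at 45.1 ± 4.61 CPM in LS513 and 47.5 ± 5.84 CPM in LS174T and did not pass the test (edgeR adjusted p = 0.62). P2RY1 lay at a log2 fold change of 1.00, on the threshold itself, and was not called.

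The 12 most abundant protein-coding genes on in LS513 and silent in LS174T were, in order, GALNT12, KCNE3, C2orf88, EPDR1, ABCG2, STARD3NL, GSDMA, LEF1, FRK, H2AFJ, TMPRSS13 and TMEM200A, with means from 109 down to 33.4 CPM. C2orf88, which encodes a small anchor of protein kinase A, stood at 68.2, 68.1 and 60.9 CPM in LS513 and had 0 counts in LS174T, at least 726-fold higher. FRK, a Src-related tyrosine kinase of epithelia, stood at 38.4, 41.2 and 42.1 CPM and also had 0 counts, at least 448-fold higher. ABCG2, an efflux transporter of drugs and urate at the apical membrane, stood at 59.0, 53.5 and 60.8 CPM with 0, 1 and 1 counts in LS174T. GSDMA, a gasdermin of surface epithelia, stood at 51.4, 51.6 and 63.3 CPM with 0, 1 and 0. These values varied little between LS513 libraries, and the LS174T libraries were at or next to 0.

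The 12 most abundant protein-coding genes of the opposite class were MME, BCAT1, CALD1, OLFM2, MAGEC1, FADS1, UST, NLRP1, MT1E, CPED1, MSN and ZNF595, with means from 246 down to 108 CPM. MME, the cell surface peptidase CD10, stood at 205, 269 and 263 CPM in LS174T and was carried by 0, 2 and 0 counts in LS513. BCAT1, the cytosolic branched-chain aminotransferase, stood at 170, 188 and 185 CPM with 0, 3 and 0 counts in LS513. MSN, which encodes moesin, a linker of the membrane to actin, stood at 124, 101 and 110 CPM with 2 counts in each LS513 library. CALD1, the actin-binding caldesmon, averaged 174 ± 9.40 CPM, FADS1, a fatty acid desaturase, 128 ± 17.4 CPM, and NLRP1, an inflammasome sensor, 121 ± 11.7 CPM. The levels of this class were thus higher at the top than those of the LS513 class, where 8 genes averaged at least 50 CPM, against 44 here.

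A few gene families were counted in both classes, and these families were picked after the values were seen. Of 455 tested protein-coding zinc finger genes with ZNF or ZFP symbols, 57 were on in LS174T and silent in LS513 (12.5%), beside 3.54% of all tested genes, and 7 were in the opposite class (1.54%), beside 1.22%. On chromosome 19, which holds large clusters of such genes, 38 of 213 were on in LS174T and silent in LS513 and 3 in the opposite class. ZNF544 stood at 55.3, 52.7 and 51.4 CPM in LS174T with 2, 2 and 0 counts in LS513. Of 13 tested genes whose symbols begin with MAGE or GAGE, taken by symbol alone, 6 were in this class (46.2%) and none in the opposite one. The metallothioneins MT1 and MT2, which bind zinc and copper, had 3 of 7 tested members in this class, and all 7 were called higher in LS174T. The clustered protocadherins, adhesion molecules of neurons, ran the other way by calls, with 23 of 36 tested called higher in LS513 (63.9%, beside 14.2% of all tested genes) and 8 higher in LS174T, although 2 were on in LS174T and silent in LS513 and none in the opposite class. TBXT, the brachyury factor of early mesoderm, stood at 81.4, 75.2 and 77.8 CPM in LS174T with 0 counts in LS513.

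The share of each class differed between chromosomes, with small counts on several of them, and the differences were not tested. The share of tested protein-coding genes that were on in LS174T and silent in LS513 was 6.92% on chromosome X (29 of 419), 5.99% on chromosome 13, 5.63% on chromosome 4 and 5.45% on chromosome 19 (55 of 1009), and 1.16% on chromosome 20. For genes on in LS513 and silent in LS174T the share went from 0.239% on chromosome X (1 of 419) to 3.05% on chromosome 21 (4 of 131). Over all tested genes of every type the shares were 3.54% (on in LS174T) and 1.22% (on in LS513). Neighboring tested protein-coding genes fell in the same class in 43 runs for LS174T (96 genes) and 9 runs for LS513 (20 genes). The number of runs that genes scattered at random would give was not worked out. The longest were ZNF606, ZNF329, ZNF274 and ZNF544 at chr19:57977053-58277495 and HBG2, HBE1, OR51B4 and OR51B5 at chr11:5253190-5505652, both on in LS174T. MT1E, MT1M and MT1A formed another at chr16:56625475-56640087. In the LS513 class, EPDR1 and STARD3NL, both among the 12 most abundant genes, were neighbors at chr7:37683843-38230671, and L3MBTL3, SAMD3 and TMEM200A were at chr6:130013699-130443063. The runs and positions are given on GRCh38, overlapping annotations within a run may share reads, and copy number was not measured.

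**Figure D4:**
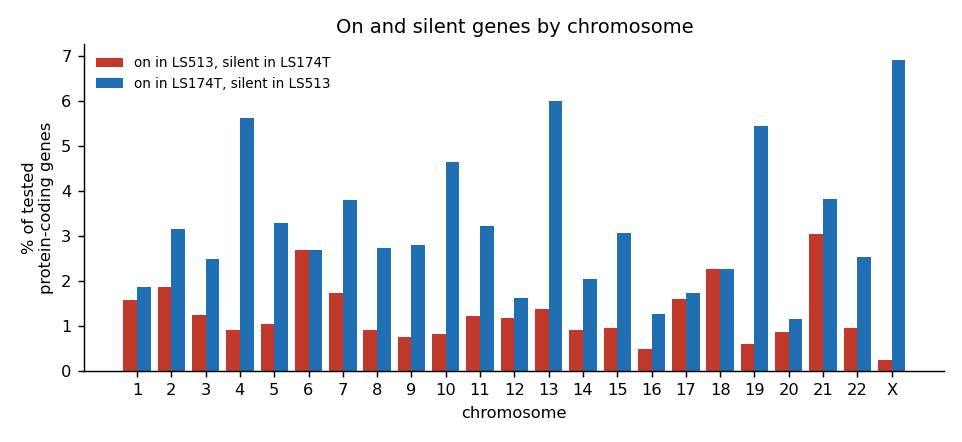
Percent of the tested protein-coding genes of each chromosome (vertical) that were on in LS513 and silent in LS174T (red) or on in LS174T and silent in LS513 (blue). The blue bars are highest on X at 6.92%, 13, 4 and 19, and the red bar is lowest on X at 0.239%.

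The state of both classes was largely kept when the same lines grew as 3D spheroids. Of the 199 genes, 149 (74.9%) were again on in LS513 and silent in LS174T in the 3D libraries, and of the 577 genes, 487 (84.4%) were again on in LS174T and silent in LS513. None of the 199 genes was on in LS174T 3D, and 1 of the 577 was on in LS513 3D. On the scale of all 24 libraries, MUC1 averaged 16.3 CPM in LS513 2D and 70.7 CPM in LS513 3D and had at most 3 counts in any LS174T 3D library. KIT averaged 44.6 CPM in LS174T 2D and 115.8 CPM in LS174T 3D, with 0 counts in LS513 3D.

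In the 2D libraries of the other 2 lines the classes were mixed. Of the 199 genes, 83 were on in HT29 and 97 in HCT116, and 34 (17.1%) were silent in both. Of the 577 genes, 133 were on in HT29 and 228 in HCT116, and 203 (35.2%) were silent in both. GALNT12 was on in both other lines, at 50.7 CPM in HT29 and 30.4 CPM in HCT116, and so was GALNT14, at 63.7 and 20.7 CPM. LEF1 had at most 4 counts in any 2D library of HT29 and none in HCT116, and KIT had at most 1 count in those of either line. Expression of P2RX5 was shared with HCT116 (17.4 CPM) and not with HT29 (at most 3 counts).

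**Figure D5:**
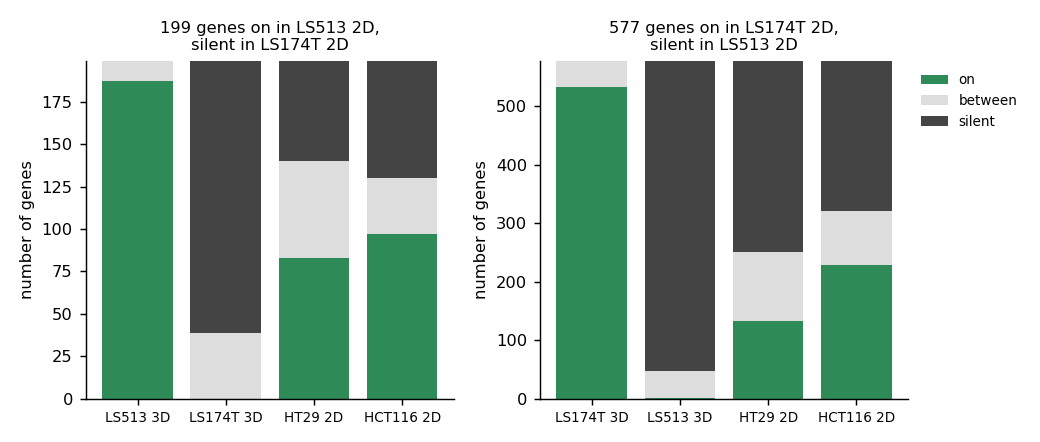
Number of genes (vertical) of the 2 classes that were on, silent or between these limits in the 3D libraries of the same lines and in the 2D libraries of HT29 and HCT116. Of the 199 genes (left) 187 were on in LS513 3D and 160 silent in LS174T 3D, and of the 577 genes (right) 533 were on in LS174T 3D and 529 silent in LS513 3D.

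The limits of the classes were crossed narrowly by some genes. Just inside were FAM131C, at 1.12, 1.11 and 1.49 CPM in LS513, and GRM8, at 1.09, 1.42 and 1.20 CPM, and for LS174T CTGF, at 1.06, 1.06 and 1.14 CPM, and G0S2, at 1.15, 1.09 and 1.05 CPM. Just outside were genes with 4 counts in 1 library of the other line. DNMT3A, a DNA methyltransferase that sets new methylation, had 1305, 1393 and 1347 counts in LS513 (about 43 CPM) and 0, 4 and 0 in LS174T, and MYH7B had 76, 74 and 103 against 4, 0 and 0. In the other direction CNTNAP2 had 2823, 3592 and 3412 counts in LS174T and 0, 4 and 0 in LS513, and MAP7D3 had 671, 640 and 645 against 4, 0 and 0. A limit of 10 counts would admit all 4.

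Large differences were also found where both lines expressed the gene. Among 8831 protein-coding genes with at least 10 CPM in each of the 6 libraries, the 5 largest differences toward LS513 were those of TGFBI, a secreted matrix protein (4.48 ± 0.13), HLA-B, a class I antigen-presenting molecule (4.22 ± 0.12), TSPAN1 (3.96 ± 0.18), CEACAM6 (3.94 ± 0.32) and TFF3 (3.84 ± 0.14). TGFBI averaged 635.5 ± 57.8 CPM in LS513 and 28.5 ± 1.69 CPM in LS174T, and HLA-B 1096 ± 35.8 and 58.9 ± 6.87 CPM. So 3 of these 5 genes belong to the goblet and absorptive lists above. Toward LS174T the 5 largest were those of IGFBP4, a secreted binding protein of insulin-like growth factors (-4.27 ± 0.13), CKB, the brain-type creatine kinase (-4.04 ± 0.18), UGT1A6, a glucuronosyltransferase (-3.60 ± 0.15), EPHX1, the microsomal epoxide hydrolase (-3.54 ± 0.10), and NRCAM, a cell adhesion molecule (-3.50 ± 0.11). IGFBP4 averaged 13.4 ± 2.66 CPM in LS513 and 258.3 ± 21.0 CPM in LS174T. UGT1A6 shares 44.0% of its exonic bases with other annotated genes, so its value may hold reads of its neighbors.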

How the data were processed

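The authors extracted RNA with the RNeasy Plus Micro kit, selected poly(A)+ RNA, made strand-specific TruSeq libraries and sequenced single reads. They trimmed reads with Trim Galore 0.4.1, removed reads of at most 40 bases or with a mean quality of at most 30, aligned with STAR, dropped reads aligned more than once and counted per gene with HTSeq-count 0.5.3 on Ensembl annotation. The deposited values are raw counts, 1 table per technical replicate, with no normalization. The paper names Ensembl release 91, whose assembly is GRCh38, while the labels list hg19. Positions and symbols come from GENCODE 29 on GRCh38, which matched 57980 of the 58243 gene identifiers. The counting options for strand and overlapping genes are not given in the sources used here.

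The technical replicates of each library (8 each, and 7 for HT29 3D replicate 4, from 191 tables in all) were summed after a check that they varied by no more than sampling noise. Genes of chromosome Y, XIST and TSIX (519 identifiers) were left out. The test was the quasi-likelihood test of edgeR 4.0.16 (R 4.3.3) with TMM scaling, fitted over the 12 2D libraries with 1 coefficient per line. The function filterByExpr, run on the 6 compared libraries, kept 16317 genes, and the Benjamini-Hochberg adjustment was made over them. HT29 and HCT116 enter only the estimate of the spread. CPM are on the TMM scale, SE was taken from the fold and its F statistic, and folds against 0 counts use a floor of 3 counts per library. Counting intervals (95%, exact binomial) cover counting error only. Counts were also simulated with the fitted spread for 15937 genes, of which 192 were changed. Of the changed genes 180 were called, and 2 unchanged genes were called falsely. Between the real lines 70.5% of genes had an edgeR adjusted p below 0.05, so the simulation does not measure false calls under that condition.

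The gene lists and their members (mucins, goblet, glycosylation, exocytosis, absorptive, stem, enteroendocrine, Paneth, tuft, gastric, purinergic and marker lists) were chosen with earlier results of these data known. Genes were named by rule: list members, the 12 most abundant protein-coding genes of each on and silent class, the 5 largest folds each way among genes expressed in both lines, and the 2 genes nearest each limit. ZNF544, TBXT and the neighboring genes were named after their values were seen. Alternatives were other scaling, DESeq2 1.42.0, other filters and limits, other sets of libraries, a replicate block, and leaving out each library.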

Additional observations from a re-analysis of the deposited data

How the results depend on the processing

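The counts of called genes stayed within 1.5 times with DESeq2 (size factors or test), a filter of only 1 count, and fits to 6 or 24 libraries. Leaving out 1 library of either line gave 2346 to 2436 genes higher in LS513 and 2760 to 2925 higher in LS174T, and leaving out the shallowest HT29 2D library, a choice made after seeing the data, gave 2320 and 2728. With no fold threshold the counts were 5572 and 5938, and with a log2 fold of at least 2 they were 1189 and 1650. The replicate block gave 2307 and 2722. Equal replicate numbers correlated at -0.006, -0.10 and 0.08 between the lines, so they do not pair libraries.

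The classes depend on their limits. Requiring 0 counts left 65 genes on in LS513 and silent in LS174T, and 308 in the other direction, and requiring at least 5 CPM left 78 and 264. Allowing 10 counts gave 342 genes on in LS513 and silent in LS174T. Leaving out 1 library gave 205 to 221 and 587 to 605. It removes a condition of the rule, so these counts could hardly fall and do not measure stability.

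Of 243 named genes followed through 13 alternative fits, 167 were called, none changed direction, and 7 lost the call in at least 1 fit: CDHR2, CDX2, GCG, MUC3A, MUC17, STX3 and TFF2. TFF1, P2RY1, GALNT7, GALNT11, SCG5 and VAMP8 gained one. GCG was lost with DESeq2 only (adjusted p = 0.10). STX3 and CDHR2 were lost in several fits, the replicate block among them (log2 fold 1.00 and 0.98). Counts of 3 or fewer set the depth limit: genes near 0.09 CPM cannot be told from silent ones.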
